A study of Mus musculus with 10 samples.

Results

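Homologous recombination and the Fanconi anaemia pathway were followed through 36 genes in oesophageal tissue of carcinogen-treated mice. The genes were taken by symbol from the deposited table of 22740 protein-coding genes. All 36 were found, and all 36 were among the 13731 genes that passed a filter on low counts. The 5 Grhl3 KO libraries came from mice labelled as knock outs for Grhl3, which encodes a transcription factor needed by surface epithelia such as skin and oesophagus, and their tissue is labelled as oesophageal tumour. The 5 wild-type libraries carry only the label oesophageal tissue, although the study's design text describes tumours from both genotypes. Every mouse was C57BL/6 and was given 4-NQO (4-nitroquinoline 1-oxide, a carcinogen that forms bulky DNA adducts and is used to raise squamous tumours). The study's title calls the knockout conditional, and the columns of the table name it L2Cre; the sources used here give neither the promoter that drives the Cre nor the age or sex of the mice. The design text counts 5 mice in each group, so p-values measure the spread between mice, and genotype and the label of the tissue cannot be told apart.

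Homologous recombination repairs a broken chromosome by copying the intact sister chromatid, which makes it a pathway of cells that have replicated their DNA. The break is trimmed to single-stranded DNA, the strand is prepared for pairing with the help of BRCA1, PALB2 and BRCA2, and the joined molecules are then separated by helicases and nucleases. The Fanconi anaemia proteins detect strands that are linked across the helix, attach ubiquitin to the FANCI-FANCD2 pair and pass the opened lesion to recombination; squamous cancers of the mouth and oesophagus are a known hazard of inherited Fanconi anaemia. Many of these genes are transcribed mainly in dividing cells, so the level of each library was read beside a measure of its proliferation.

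The libraries held 15.3 to 32.9 M counts in total, with M the SI prefix mega. Levels are given as CPM, which are counts per M after TMM scaling of the library size. Grhl3 itself had a mean of 222 ± 66.8 CPM (SD, n = 5) in Grhl3 KO, while in wild type the mean was 207 ± 112 CPM, with an adjusted p of 0.979 in edgeR, so the counts of the whole gene did not separate the labels; the sources used here do not say which part of the gene was deleted. The Y-linked gene Eif2s3y was at 71.0 to 75.6 CPM in Grhl3 KO. In wild type 1028, 1048, 1528, 1555 and 1561 it was at 69.2, 68.4, 0, 0.0539 and 24.9 CPM. That signal thus differed within wild type, where 1028 and 1048 were near the Grhl3 KO level and 1561 lay between the others. The group difference of Eif2s3y had an edgeR adjusted p of 0.889. With wild-type values this far apart, that p does not show balance between the groups. The Y-linked Ddx3y was at 40.9 to 65.0 CPM in Grhl3 KO and at 0, 0 and 29.1 CPM in wild type 1528, 1555 and 1561. Low or intermediate Y-linked signal was thus found only in wild type, so this signal and genotype cannot be fully told apart. All 12 squamous epithelial markers, among them keratins 5 and 14, exceeded 1 CPM in at least 1 library, and Krt5 was at 7418 CPM or more in each. Sample numbers also fall in separate series, 1026 to 1048 for 7 libraries and 1528 to 1561 for 3 wild-type libraries. No label explains these numbers, and the higher series holds all the libraries of low or intermediate Y-linked signal.

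Proliferation was summarised as an index, the mean log2 CPM of 32 genes of mitosis and DNA replication (Mki67, Top2a, Mcm2 and Pcna among them) that include none of the 36 repair genes. In the order 1026, 1027, 1035, 1036 and 1043 the index was 5.001, 4.96, 5.72, 5.53 and 5.49 in Grhl3 KO. In the order 1028, 1048, 1528, 1555 and 1561 it was 5.03, 5.48, 5.37, 4.69 and 5.94 in wild type. The Grhl3 KO values all lay within the wild-type range, and the lowest and the highest library, 1555 and 1561, were both wild type. The mean was 5.34 ± 0.34 (SD, n = 5) in Grhl3 KO and 5.30 ± 0.47 in wild type, a difference of 0.04 with an exact two-sided permutation p of 0.889 (the smallest p this design allows is 0.00794). Across the 10 libraries the index spanned 1.25 on the log2 scale, or 2.37-fold. All values per library below follow these 2 orders.

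**Figure D1:**
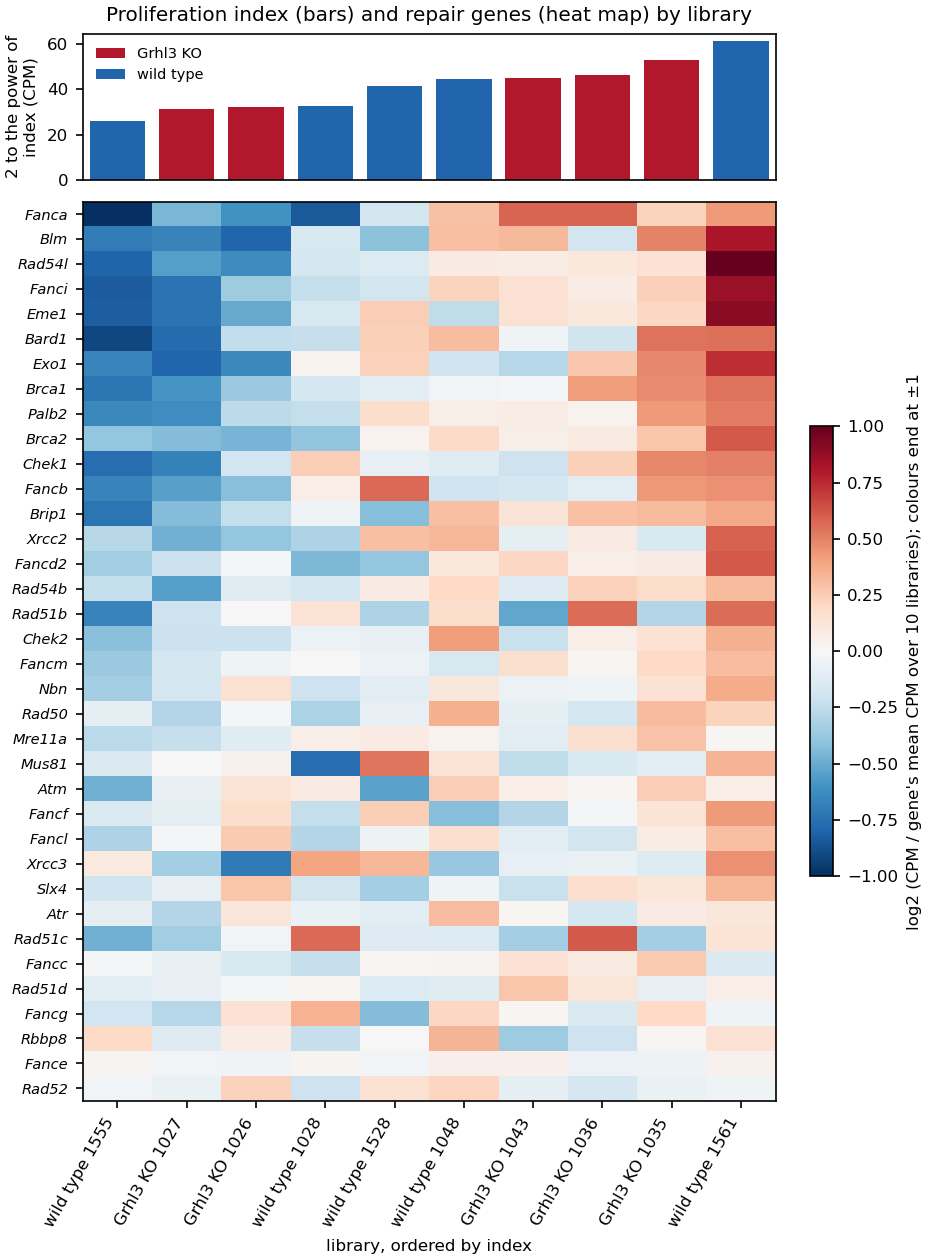
Each column is 1 library, ordered from the lowest to the highest proliferation index. The bars give 2 to the power of the index in CPM, and the colours give the log2 ratio of each gene's CPM to its own mean over 10 libraries, with colours ending at ±1. Genes are ordered by their slope on the index. Of the 36, 20 were highest in wild type 1561 and 17 were lowest in wild type 1555, and the shares over all genes were not counted.

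The repair genes differed in how evenly they were expressed across the 10 mice. Wild type 1561, the library of highest index, held the highest value of 20 of the 36 genes and was above the gene's own mean for 33. Wild type 1555, the library of lowest index, held the lowest value of 17 and was above the mean for 3. How often these libraries held the extremes over all genes was not counted, so these counts may not be particular to the repair genes. In Grhl3 KO the same contrast ran within the group, with 28 genes above their mean in 1035 and 1 in 1027. The ratio of the highest to the lowest library was 1.08 for Fance and 3.50 for Rad54l, with a median of 2.098 over the 36 genes. Mean levels ran from 1.63 CPM to 66.2 CPM, and raw counts in a library from 19 to 2318. Per kilobase of exons, pooled over all annotated transcripts of a gene, the highest mean level was 11.4 CPM for Nbn and the lowest 0.434 CPM for Rad51b. Pooled exons can be far longer than a transcript: for Rbbp8 they span 12521 bases and its longest transcript 5471. The order on that scale is thus not an order of transcript abundance.

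The first comparison asked whether the repair genes differed between Grhl3 KO and wild type. With edgeR's quasi-likelihood test no member had an adjusted p under 0.05, and 0 of 36 had an unadjusted p under 0.05; DESeq2 and limma voom also called 0 members. Over all 13731 genes, 0.0801% were called (11 genes) and 7.16% had an unadjusted p under 0.05. Of the members, 12 were higher and 24 lower in Grhl3 KO, with a median log2 fold change of −0.06 beside −0.00 over all genes tested. Adjusted p-values of the members ran from 0.741 to 0.996. The values of the 2 groups overlapped for all 36 members, against a background in which 1.35% of genes did not overlap. For 35 of 36 members the 95% limits of the difference lay within ±1 on the log2 scale, and for 14 within ±0.5, so that a doubling or halving lay outside the limits for all but Fanca, whose upper limit was 1.08.

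Among the 6 members of smallest p between the groups were a pair of genes of the BCDX2 and CX3 complexes, which act on single-stranded DNA early in recombination. Xrcc3 was at 1.51, 1.95, 2.25, 2.36 and 2.33 CPM in the Grhl3 KO libraries and at 3.25, 1.896, 3.11, 2.64 and 3.39 CPM in the wild-type ones. Its log2 difference was −0.45 (95% limits −0.96 to 0.06, edgeR unadjusted p 0.0756, adjusted p 0.741); wild type 1048 lay among the Grhl3 KO values and the other 4 wild-type libraries above all of them. Xrcc2 was at 5.54, 5.19, 6.502, 7.64 and 6.75 CPM in the Grhl3 KO libraries and at 5.85, 9.11, 8.91, 5.98 and 10.9 CPM in the wild-type ones, with wild type 1028 and 1555 inside the Grhl3 KO range. The log2 difference of Xrcc2 was −0.37 (95% limits −0.82 to 0.09, edgeR adjusted p 0.778). Rbbp8 encodes CtIP, which starts the trimming of a break. Its level was 69.7, 60.4, 66.99, 57.2 and 51.8 CPM in the Grhl3 KO libraries and 56.3, 83.7, 66.5, 75.9 and 73.2 CPM in the wild-type ones, a log2 difference of −0.22 (95% limits −0.48 to 0.05, edgeR adjusted p 0.769). The highest 3 values of Rbbp8 were wild type, yet wild type 1028 and 1528 lay within the Grhl3 KO range.

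Among the kinases that signal damage, Atm, which responds to double-strand breaks, was at 24.97, 21.6, 27.05, 23.1 and 23.8 CPM in Grhl3 KO. In wild type Atm was at 24.2, 27.01, 15.7, 16.3 and 23.8 CPM, so that only 1528 and 1555 lay below the Grhl3 KO range, and the log2 difference was 0.17 (edgeR adjusted p 0.888). That sign rests on the libraries of the higher number series: among the 7 libraries numbered 1026 to 1048 the log2 difference of Atm was −0.09. Chek2, the kinase that ATM activates, was at 19.2, 19.3, 24.7, 23.4 and 19.2 CPM in the Grhl3 KO libraries and 21.5, 29.9, 21.1, 16.7 and 28.7 CPM in the wild-type ones, where both the lowest and the highest of the 10 values were found. The log2 difference of Chek2 was −0.15 (edgeR adjusted p 0.9104). Fancc, a subunit of the Fanconi core complex, was at 7.93, 8.35, 10.5, 9.37 and 9.73 CPM in the Grhl3 KO libraries and 7.498, 8.95, 8.91, 8.73 and 7.95 CPM in the wild-type ones, with a log2 difference of 0.13 (edgeR adjusted p 0.905). All its wild-type values lay between 7.498 and 8.95 CPM, while Grhl3 KO 1035, 1036 and 1043 lay above them.

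**Figure D2:**
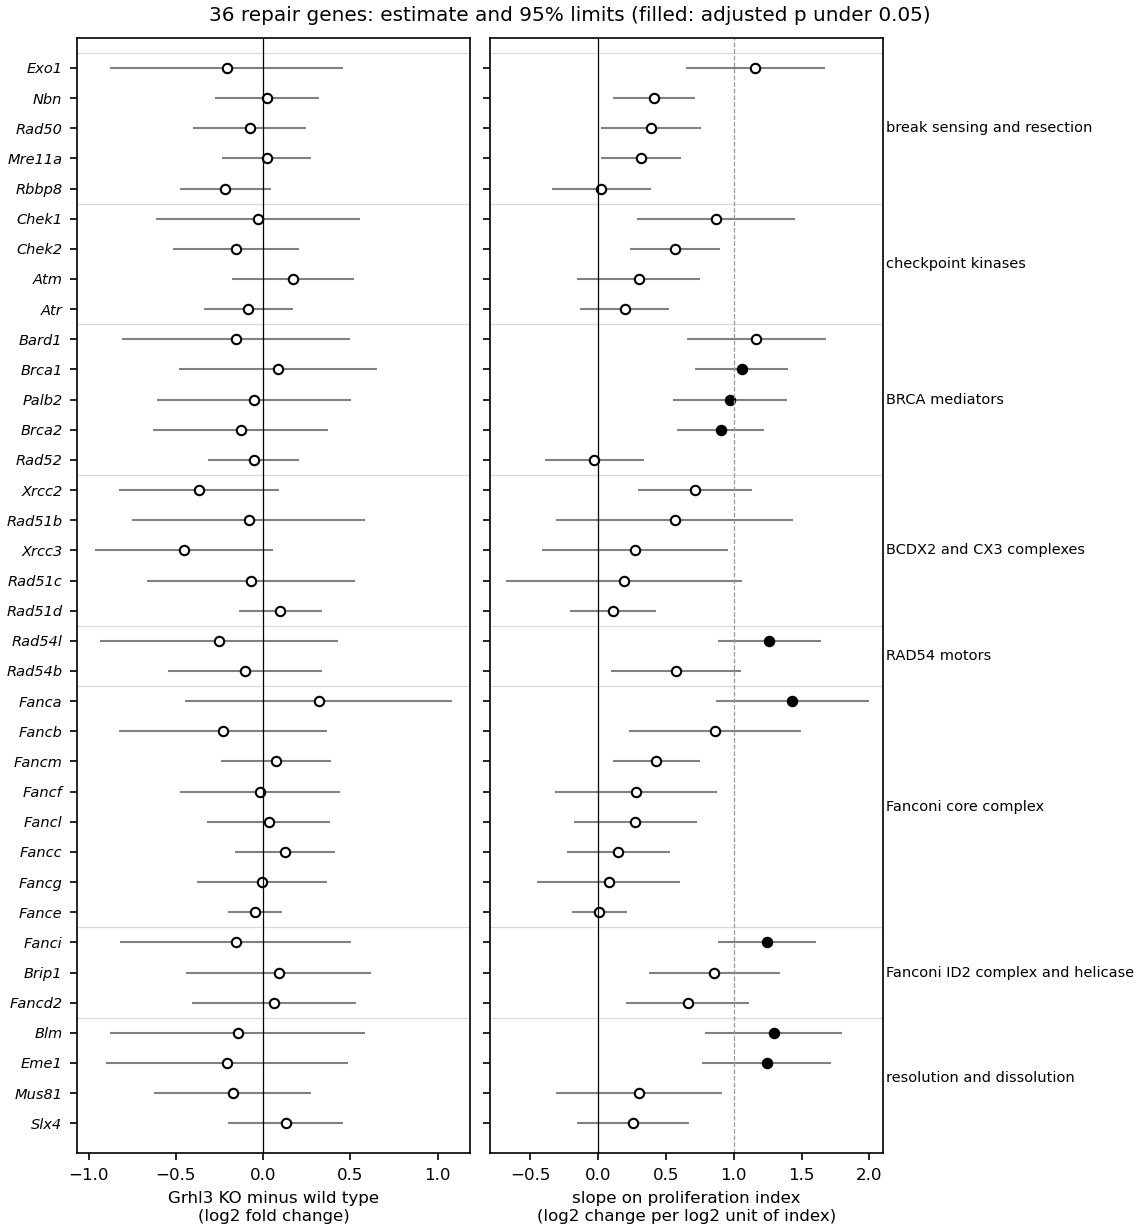
Points are the 36 repair genes by role, with lines for the 95% limits. The left panel gives the log2 difference of Grhl3 KO minus wild type and the right panel the slope, in log2 units of the gene per log2 unit of proliferation index; filled points have an adjusted p under 0.05, which holds for 0 genes on the left and 8 on the right, and the dashed line marks a slope of 1.

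The second comparison read each gene against the index with the group held in the model. The slope is the log2 change of a gene for each log2 unit of index, so a gene with a slope of 1 rises as steeply as the index. Of the 36 repair genes, 8 had an edgeR adjusted p under 0.05 (22.2%), all with positive slopes: Fanci, Rad54l, Brca1, Brca2, Eme1, Blm, Fanca and Palb2. Over all 13699 genes tested beside the index, 0.927% were called, 0.825% with a positive slope. Slopes were positive for 35 of 36 members against 46.9% of all genes, the median slope was 0.50 against −0.02, and 21 members against 14.8% of all genes had an unadjusted p under 0.05. The slopes themselves were spread: 16 members had 95% limits above 0 that also included 1 or more, while 18 members had an upper limit under 1. In bulk tissue, fewer cells of a type and less RNA per cell cannot be told apart, so a slope does not say whether dividing cells were more numerous or held more of a transcript.

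The calls rest on the libraries at the ends of the index, wild type 1555 and 1561. Their Eif2s3y levels were 0.0539 and 24.9 CPM, and whether this bears on the calls was not tested directly. With the number series as a covariate, which sets wild type 1528, 1555 and 1561 apart from the rest, 6 members and 99 genes were called. That covariate does not tell 1555 from 1561. Without wild type 1555 no gene of the table was called, and likewise without wild type 1561, so that 0 members passed in either case; without both, 31 of 36 slopes were positive with a median of 0.48 and 0 calls. Leaving out Grhl3 KO 1026, 1027 or 1035 left 2 called members, Fanci and Rad54l, leaving out Grhl3 KO 1036 left 3 and Grhl3 KO 1043 left 4. Without wild type 1028, 1048 or 1528 the count was 7, 8 or 6. The slopes moved less than their calls: over these 10 refits the number of positive members stayed between 33 and 36 and the median slope between 0.41 and 0.55. Among the 7 libraries numbered 1026 to 1048, where the other series is left out, 32 of 36 slopes were positive with a median of 0.49, and 0 members and 0 genes were called.

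Among the 5 mediators, which act on single-stranded DNA, 4 had positive slopes at an edgeR unadjusted p under 0.05, and 3 were called. Of all genes tested, 14.8% reached that unadjusted level in either direction and 0.927% were called. Brca1 encodes a ubiquitin ligase that promotes end trimming and recruits PALB2. It was at 12.3, 10.6, 22.1, 21.3 and 15.8 CPM in the Grhl3 KO libraries and 14.1, 15.7, 14.8, 9.701 and 23.2 CPM in the wild-type ones, highest in wild type 1561 and lowest in wild type 1555. Its slope was 1.06 ± 0.15 (SE; edgeR adjusted p 0.0175). Brca2, which prepares the strand for pairing, was at 7.17, 7.33, 11.99, 10.6 and 10.3 CPM in the Grhl3 KO libraries and 7.54, 11.3, 10.2, 7.599 and 15.2 CPM in the wild-type ones. The 4 libraries of lowest index, Grhl3 KO 1026 and 1027 and wild type 1028 and 1555, all lay between 7.17 and 7.599 CPM, and the slope was 0.90 ± 0.14 (edgeR adjusted p 0.0253). Palb2, the bridge between BRCA1 and BRCA2, was at 5.28, 4.13, 8.496, 6.499 and 6.69 CPM in the Grhl3 KO libraries and 5.38, 6.63, 7.17, 4.04 and 9.04 CPM in the wild-type ones, with a slope of 0.97 ± 0.19 (edgeR adjusted p 0.0473). Its lowest values were wild type 1555 and Grhl3 KO 1027, the libraries of lowest index. The partner of BRCA1 in the ligase, Bard1, stood just outside the threshold with 6.48, 4.51, 11.2, 6.696 and 7.52 CPM in the Grhl3 KO libraries and 6.55, 9.53, 9.07, 4.096 and 11.3 CPM in the wild-type ones. The slope of Bard1 was 1.17 ± 0.23 (edgeR adjusted p 0.0511), within the range of the called slopes.

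Rad52 stood apart among the mediators. It encodes a strand-annealing protein whose loss is well tolerated in mice. Its level was 18.1, 14.8, 14.7, 13.7 and 14.5 CPM in the Grhl3 KO libraries and 13.3, 17.9, 17.1, 15.1 and 15.01 CPM in the wild-type ones, and neither 1555 nor 1561 was at an end of this range. The slope was −0.03 (95% limits −0.39 to 0.34, edgeR adjusted p 0.956), the only negative slope among the 36 genes. Its sign was not stable, at 0.04 with an index of 16 mitotic genes alone. The upper limit for Rad52 lay below the lower limits for Brca1, Brca2, Palb2 and Bard1; the differences between genes were not tested.

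Exo1 and Rbbp8 showed the same contrast among the 5 genes that sense and trim a break. EXO1 is the nuclease of long-range trimming, and its transcript was at 7.11, 6.401, 15.4, 13.4 and 9.07 CPM in the Grhl3 KO libraries and 11.4, 9.64, 12.97, 7.01 and 18.5 CPM in the wild-type ones. The libraries of highest index, wild type 1561 and Grhl3 KO 1035, had the highest values, and the slope was 1.16 ± 0.23 (edgeR adjusted p 0.0523). Rbbp8, with the values given above, had a slope of 0.02 (95% limits −0.34 to 0.39, edgeR adjusted p 0.969). The 3 genes of the MRN complex, which binds broken ends and activates ATM, had shallow slopes of 0.41 for Nbn, 0.39 for Rad50 and 0.32 for Mre11a. Their edgeR adjusted p-values were 0.2099, 0.306 and 0.295, their 95% limits were above 0, and none reached a slope of 1 within them.

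Of the 4 kinases of the checkpoint, 0 passed the threshold in edgeR and 2 had an unadjusted p under 0.05. Among all genes tested, 0.927% passed and 14.8% had such an unadjusted p. The slope of Chek2 was 0.56 (edgeR adjusted p 0.127; DESeq2 adjusted p 0.0209). That of Chek1, the kinase that ATR activates when replication stalls, was 0.87 (edgeR adjusted p 0.175; DESeq2 adjusted p 0.0353). DESeq2 called 630 of all genes for the slope, against 127 in edgeR. Chek1 ranged from 5.12 CPM in wild type 1555 to 12.3 CPM in wild type 1561. The kinases above them in the cascade were flatter, with slopes of 0.30 for Atm and 0.19 for Atr and 95% limits that included 0.

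Of the 5 genes of the BCDX2 and CX3 complexes, 0 passed the threshold in edgeR and 1, Xrcc2, had an unadjusted p under 0.05. As 14.8% of all genes reached that unadjusted level, 1 of 5 does not stand out. DESeq2 called 630 of all genes for the slope where edgeR called 127. The slope of Xrcc2 was 0.71 ± 0.19 (edgeR adjusted p 0.125, DESeq2 adjusted p 0.00828). Those of Rad51b, Xrcc3, Rad51c and Rad51d were 0.56, 0.27, 0.19 and 0.11; that of Rad51c was −0.13 without the 2 libraries farthest from the median index. Rad51b and Rad51c, at means of 1.63 and 3.47 CPM, had the widest limits of the 36 slopes (−0.31 to 1.44 and −0.68 to 1.06), so that neither a flat course nor a slope of 1 lay outside them.

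RAD54 proteins are motors that drive strand exchange. Rad54l was at 6.67, 7.07, 11.4, 11.1 and 10.9 CPM in the Grhl3 KO libraries and 9.15, 10.95, 9.39, 5.93 and 20.8 CPM in the wild-type ones. Wild type 1561 stood well above the other 9 libraries, which lay between 5.93 and 11.4 CPM. The slope was 1.26 ± 0.17 (edgeR adjusted p 0.0118), and without wild type 1561 it was 1.05. The related Rad54b, with a mean of 4.64 CPM, had a slope of 0.57 (edgeR adjusted p 0.2603); its exons overlap those of Fsbp on the same strand, so its counts are uncertain.

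**Figure D3:**
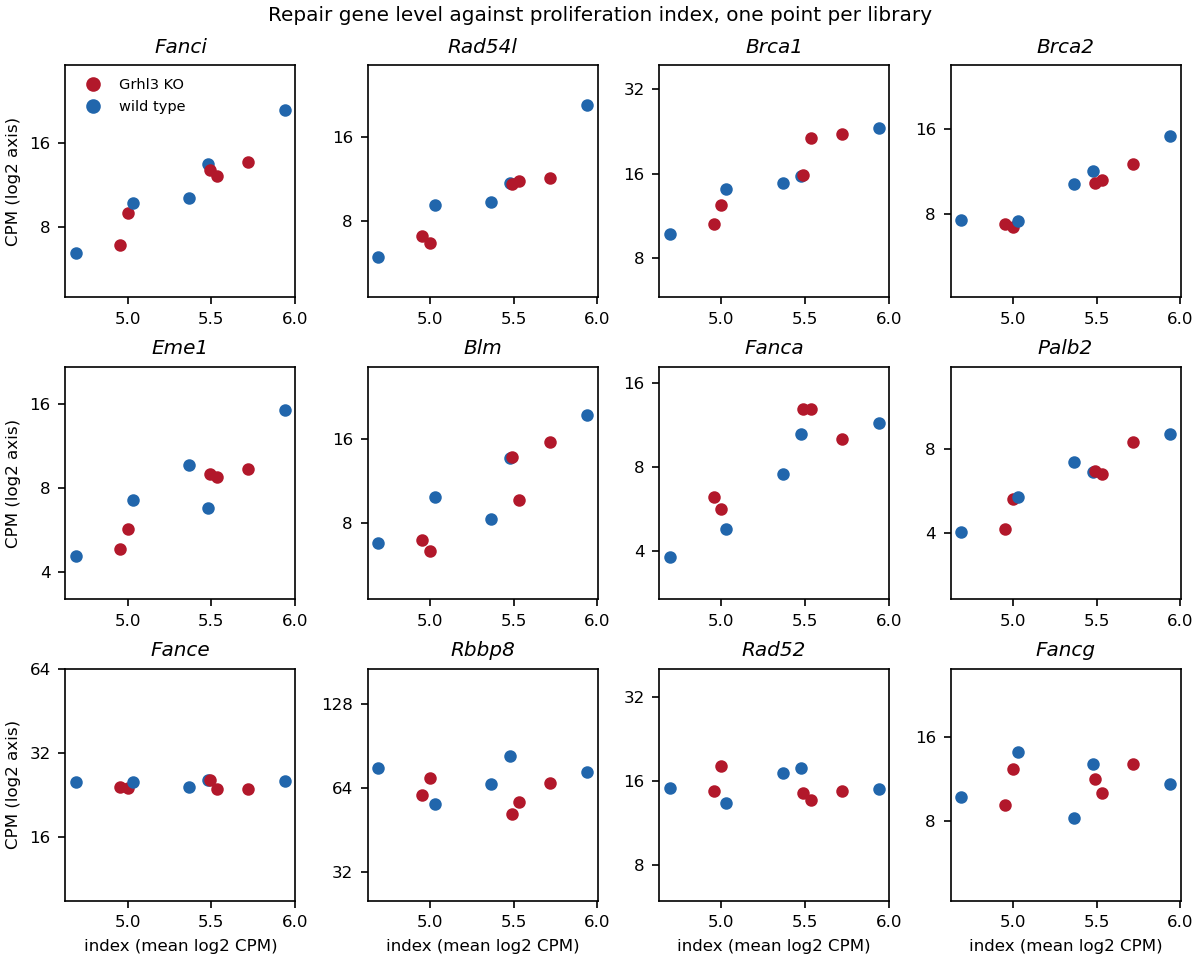
Each point is 1 library, with the proliferation index (mean log2 CPM) on the horizontal axis and the gene's CPM on a log2 vertical axis of the same span in every panel. The 8 genes of the upper rows are those with a called slope, between 0.90 and 1.43; the 4 genes of the lowest row are the members of largest p, with slopes from −0.03 to 0.08.

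In the Fanconi pathway the pair that receives ubiquitin and the helicase that works with it had slopes from 0.66 to 1.25. Of these 3 genes 1 was called, beside 0.927% of all genes. The 8 genes of the ligase complex that modifies the pair had slopes from 0.01 to 1.43 with a median of 0.28; the difference was not tested. Fanci had the smallest p of the 36 slopes and ranked 21 among all 13699 genes. It was at 8.99, 6.91, 13.6, 12.2 and 12.8 CPM in the Grhl3 KO libraries and 9.76, 13.4, 10.2, 6.47 and 20.99 CPM in the wild-type ones. The order of the libraries was nearly that of the index, and the slope was 1.25 ± 0.16 (edgeR adjusted p 0.0106). Fancd2, its partner in the clamp, had a slope of 0.66 (edgeR adjusted p 0.186) over a range of 6.51 to 13.6 CPM. Brip1, the helicase also named FANCJ that binds BRCA1, was at 7.04, 6.15, 10.3, 10.2 and 9.07 CPM in the Grhl3 KO libraries and 8.06, 10.2, 6.17, 5.01 and 10.8 CPM in the wild-type ones. Wild type 1555 and Grhl3 KO 1027 were again low, with wild type 1528 beside them. The slope of Brip1 was 0.86 ± 0.22 (edgeR adjusted p 0.113, DESeq2 adjusted p 0.00616). For all genes, DESeq2 called 630 slopes and edgeR 127.

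Of the 8 core complex genes, 8 had positive slopes, 3 had an edgeR unadjusted p under 0.05 and 1 was called. The shares over all genes were 46.9%, 14.8% and 0.927%. Fanca, the scaffold of the ligase, was at 5.66, 6.27, 10.1, 12.9 and 12.9 CPM in the Grhl3 KO libraries and 4.81, 10.5, 7.59, 3.83 and 11.5 CPM in the wild-type ones. Grhl3 KO 1036 and 1043 had the highest values and wild type 1555 the lowest. The slope was 1.43 ± 0.25 (edgeR adjusted p 0.0362), the steepest point estimate of the 36 genes, with 95% limits from 0.87 to 1.995. Fancb, which is X-linked, and Fancm, the helicase that docks the complex on DNA, had slopes of 0.86 and 0.43 (edgeR adjusted p 0.209 and 0.217). Their 95% limits, 0.23 to 1.49 and 0.11 to 0.75, were above 0. Fancl, the ubiquitin ligase subunit, Fancf and Fancc had slopes of 0.27, 0.28 and 0.15, with 95% limits that included 0. With the level of squamous markers as a covariate, the slopes of Fancl and Fancf were −0.12 and −0.20.

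Fance was the most even of the 36 genes. This subunit, which holds FANCD2 for modification, was at 24.1, 24.3, 23.8, 23.8 and 25.6 CPM in the Grhl3 KO libraries and 25.2, 25.6, 24.3, 25.2 and 25.4 CPM in the wild-type ones. No library stood apart, and the groups overlapped. The slope was 0.01 with 95% limits from −0.20 to 0.21 (edgeR adjusted p 0.984), so that even a slope of 0.5 lay outside them. Fancg, an adaptor that binds FANCA, was at 12.3, 9.12, 12.8, 10.1 and 11.3 CPM in the Grhl3 KO libraries and 14.1, 12.8, 8.23, 9.75 and 10.8 CPM in the wild-type ones. The slope of Fancg was 0.08 (95% limits −0.45 to 0.60, edgeR adjusted p 0.909), with its highest value in wild type 1028 and its lowest in wild type 1528.

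At the last step, joined chromosomes are dissolved by the BLM helicase or cut by nucleases. Blm was at 6.35, 6.95, 15.6, 9.69 and 13.8 CPM in the Grhl3 KO libraries and 9.86, 13.6, 8.28, 6.79 and 19.4 CPM in the wild-type ones. Values under 7 CPM were found in Grhl3 KO 1026 and 1027 and wild type 1555, and the slope was 1.29 ± 0.23 (edgeR adjusted p 0.0362). Eme1, the partner that makes MUS81 an active nuclease, was at 5.72, 4.86, 9.36, 8.74 and 9.02 CPM in the Grhl3 KO libraries and 7.26, 6.79, 9.65, 4.58 and 15.2 CPM in the wild-type ones. Wild type 1561 was again highest, and the slope of Eme1 was 1.24 ± 0.21 (edgeR adjusted p 0.03296). The subunits it works with did not pass the threshold: Mus81 had a slope of 0.30 (edgeR adjusted p 0.646) and Slx4, the scaffold for the nucleases, one of 0.26 (edgeR adjusted p 0.545). With the level of squamous markers as a covariate these slopes were −0.20 and −0.02. The lowest and the highest Mus81 values were 9.38 CPM in wild type 1028 and 23.1 CPM in wild type 1528, which ranked 7 and 6 of 10 by index; 13.8% of the Mus81 transcript is near-identical to the predicted gene Gm48985, so its counts are uncertain.

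Promoters of 5 genes with a called slope and of the 2 even genes Rad52 and Fance are shown because genes of both kinds carried the same short motifs. Each runs 5′ to 3′ in the direction of the gene, from 250 bases before to 30 after the RefSeq start (build GRCm38.p6). Capitals mark the E2F core (written TTGGCGC, else TTCCCGC, else TTCGCGC, else TTGCCGC), the sequence CCAAT and the cell cycle homology element TTTGAA on either strand; overlapping matches were counted. The windows are, in turn, Fanci at chr7:79392088-79392367 (plus strand), Rad54l at chr4:116123661-116123940 (minus strand), Brca1 at chr11:101551926-101552205 (minus strand), Brca2 at chr5:150522371-150522650 (plus strand), Blm at chr7:80534969-80535248 (minus strand), Rad52 at chr6:119902448-119902727 (plus strand) and Fance at chr17:28313280-28313559 (plus strand).
Fanci: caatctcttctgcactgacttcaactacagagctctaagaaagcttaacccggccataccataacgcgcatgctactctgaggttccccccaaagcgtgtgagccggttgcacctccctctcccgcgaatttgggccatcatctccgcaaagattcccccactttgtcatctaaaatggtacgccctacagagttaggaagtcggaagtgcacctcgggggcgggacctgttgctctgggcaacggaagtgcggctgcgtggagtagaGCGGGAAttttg
Rad54l: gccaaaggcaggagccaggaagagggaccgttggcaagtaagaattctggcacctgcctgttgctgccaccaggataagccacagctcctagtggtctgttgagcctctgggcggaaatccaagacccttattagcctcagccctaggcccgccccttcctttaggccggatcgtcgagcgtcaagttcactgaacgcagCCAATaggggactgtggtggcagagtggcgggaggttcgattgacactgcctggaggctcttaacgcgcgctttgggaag
Brca1: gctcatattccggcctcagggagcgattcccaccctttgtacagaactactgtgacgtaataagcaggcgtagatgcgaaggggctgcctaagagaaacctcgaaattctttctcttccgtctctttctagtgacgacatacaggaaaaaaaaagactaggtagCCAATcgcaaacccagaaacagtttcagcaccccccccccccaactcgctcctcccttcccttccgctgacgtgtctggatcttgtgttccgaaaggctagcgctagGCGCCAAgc
Brca2: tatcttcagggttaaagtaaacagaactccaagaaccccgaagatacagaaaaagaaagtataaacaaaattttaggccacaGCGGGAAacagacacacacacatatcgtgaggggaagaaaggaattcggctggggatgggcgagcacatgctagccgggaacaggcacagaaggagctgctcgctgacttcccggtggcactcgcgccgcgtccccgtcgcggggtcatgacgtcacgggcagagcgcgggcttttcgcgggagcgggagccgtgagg
Blm: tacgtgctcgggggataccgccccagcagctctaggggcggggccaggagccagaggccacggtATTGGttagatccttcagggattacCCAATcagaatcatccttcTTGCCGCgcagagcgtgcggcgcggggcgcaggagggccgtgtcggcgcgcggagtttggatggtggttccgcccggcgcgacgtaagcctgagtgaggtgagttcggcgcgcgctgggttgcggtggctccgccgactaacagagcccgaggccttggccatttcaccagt
Rad52: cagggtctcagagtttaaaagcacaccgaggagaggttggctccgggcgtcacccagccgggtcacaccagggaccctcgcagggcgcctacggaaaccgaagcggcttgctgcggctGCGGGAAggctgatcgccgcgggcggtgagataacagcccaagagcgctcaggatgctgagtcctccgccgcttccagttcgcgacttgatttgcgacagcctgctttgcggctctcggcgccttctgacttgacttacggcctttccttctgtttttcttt
Fance: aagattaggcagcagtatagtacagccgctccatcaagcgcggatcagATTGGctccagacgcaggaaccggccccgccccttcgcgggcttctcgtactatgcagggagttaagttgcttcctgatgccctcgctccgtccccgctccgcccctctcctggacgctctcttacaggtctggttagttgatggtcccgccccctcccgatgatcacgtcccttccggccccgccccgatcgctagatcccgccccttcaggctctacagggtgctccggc

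E2F factors bind the first of these motifs in genes that are switched on as cells enter the S phase, and CCAAT is bound by NF-Y. The RefSeq table held a promoter for 28 of the 36 genes, and motifs were counted in the full windows, which reach 50 bases past the start. An E2F core was found in 15 of the 28 (53.6%), against 9.69% of all 27025 promoters of the table and 16.5% of the 10162 that belong to genes tested here. The share was 4 of 8 among members with a called slope and 11 of 20 among the others. Thus the capitals in the Rad52 window mark an E2F core although its slope was flat, and those in the Rad54l window mark CCAAT alone although its slope was steep. CCAAT was found in 17 of 28 (60.7%) against 37.9% of all promoters and 38.2% of those of genes tested. The TTTGAA element was in 2 of 28 (7.14%), the windows of Bard1 and Eme1, against 18.1% of all promoters and 11.8% of those of genes tested. Among the promoters of 82 other genes with a called positive slope, the shares were 36.6% for the E2F core, 57.3% for CCAAT and 42.7% for TTTGAA. These are matches of letters in a fixed window and show no binding; the comparisons between these shares were not tested.

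Other genes of the pathway were counted from lists drawn up beside the 36. Of 41 tested partners, 34 had positive slopes and 4 were called, all rising with the index, with a median slope of 0.33. Over all genes tested beside the index, 46.9% of slopes were positive and 0.927% were called in edgeR. Among the called partners were Rad51ap1, which stimulates strand pairing, with a slope of 1.32 ± 0.14 (SE; edgeR adjusted p 0.0103), Fignl1 with 1.11 and Hrob, listed as BC030867, with 1.34. Rad51ap1 ran from 5.82 to 17.8 CPM over the 10 libraries. Of 22 checkpoint and chromatin genes, 17 had positive slopes and 3 were called: Clspn, which carries the signal from ATR to CHK1, with 1.26, and the fork protection pair Timeless and Tipin with 1.0 and 0.74. Topbp1, the activator of ATR, had a slope of 0.69 (edgeR adjusted p 0.0556). None of these lists had a member called between Grhl3 KO and wild type in edgeR; 3 of 41 partners and 0 of 22 checkpoint genes had an unadjusted p under 0.05, a level that 7.16% of all genes reached.

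Non-homologous end joining, which seals breaks without a template and does not need a sister chromatid, was counted as a neighbouring pathway. Of its 12 genes, 8 had positive slopes, 0 were called in edgeR and 3 had an unadjusted p under 0.05, with a median slope of 0.03. Over all genes 46.9% of slopes were positive, 0.927% were called in edgeR and 14.8% had an unadjusted p under 0.05. Xrcc6, which encodes the end-binding protein Ku70, had a slope of 0.47 (edgeR adjusted p 0.130) and Prkdc, the kinase that Ku recruits, 0.26. The polymerase gene Poll had 0.47, and Paxx, listed as BC029214, had −0.61 (edgeR adjusted p 0.249). Among 26 E2F, RB and DREAM regulators, 22 had positive slopes and 2 were called: Mybl2 with 1.07 and Foxm1 with 0.95, a pair of transcription factors that follow E2F in the cell cycle. Their median slope was 0.29, and Rbl1 and Tfdp1 had slopes of 0.58 and 0.38. The differences between the lists were not tested.

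**Figure D4:**
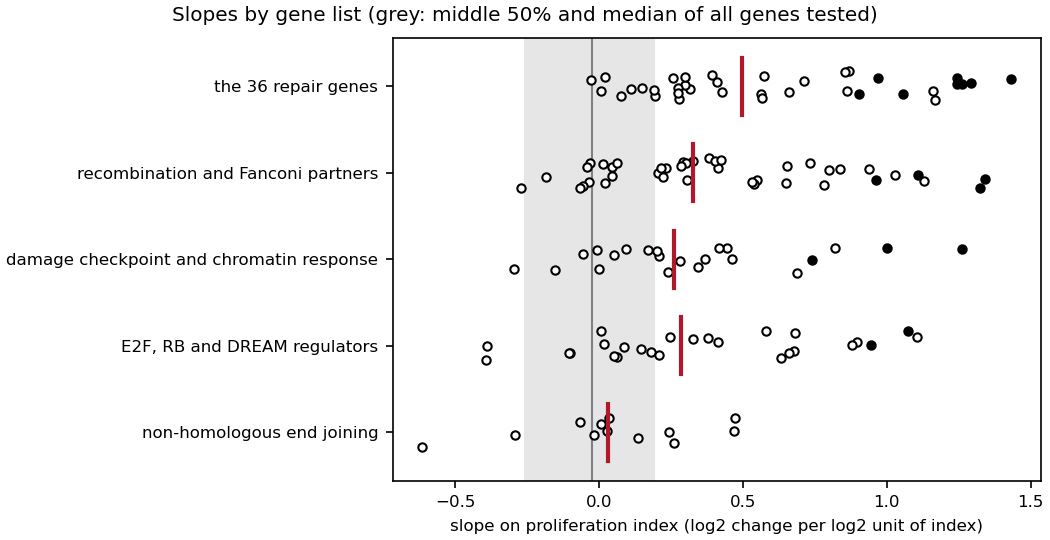
Each point is the slope of 1 gene on the proliferation index, in log2 units per log2 unit, by list; filled points have an adjusted p under 0.05. Red lines are list medians, 0.50 for the 36 repair genes and 0.03 for non-homologous end joining; the grey band holds the middle 50% of all genes tested.

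Markers of the cell types in the tissue were read beside the index, since wild type 1561, the library of highest index, had the lowest summed level of squamous and of leukocyte markers. By the mean log2 CPM of the leukocyte markers wild type 1528 was lowest, at 4.07, with wild type 1561 next at 4.20. The summed level of the 12 squamous markers ran from 50006 to 64855 CPM in Grhl3 KO and from 43542 CPM in wild type 1561 to 108264 CPM in wild type 1028 among wild type. Of these markers 10 of 12 had negative slopes, with 0 called in edgeR and 3 at an unadjusted p under 0.05. Over all genes tested, 14.8% reached that unadjusted level for the slope in edgeR, and 46.9% had positive slopes. The summed level of 12 leukocyte markers ran from 7609 to 11213 CPM in Grhl3 KO and from 3139 CPM in wild type 1561 to 23380 CPM in wild type 1028 among wild type; most of it came from S100a8 and S100a9, which keratinocytes also make. Of the 8 that passed the filter 7 had negative slopes, with 0 called in edgeR and 4 at an unadjusted p under 0.05, and the B-cell markers Cd79a and Ms4a1 and the neutrophil marker Ly6g never exceeded 1 CPM. With the squamous marker level as a covariate 29 of 36 member slopes were positive, the median was 0.64 and 0 members and 0 genes were called, with 14 members at an unadjusted p under 0.05. With the leukocyte level as a covariate, an alternative added after the data were seen, 33 were positive, the median was 0.58 and again 0 members and 0 genes were called, with 16 members at an unadjusted p under 0.05. Under these covariates the slope of Brca1 was 1.32 ± 0.24 and 1.25 ± 0.18 (SE), with edgeR adjusted p-values of 0.459 and 0.0697. Skeletal muscle markers, from the wall of the mouse oesophagus, summed to 725 to 5312 CPM. Of the 11 tested, 1 had a positive slope (median −0.54) and 11 were higher in Grhl3 KO (median log2 difference 0.55), with 0 called in edgeR and 0 at an unadjusted p under 0.05 for either. With them as a covariate 5 members were called: Fanci, Rad54l, Brca1, Brca2 and Blm. Slopes were positive for 1 of 7 smooth muscle, 7 of 8 fibroblast and 5 of 7 endothelial markers, with 0 called in edgeR and 2 at an unadjusted p under 0.05.

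The last comparisons asked whether the genotypes differed once libraries were set at equal index, and whether their slopes differed. At equal index 0 of 36 members were called between Grhl3 KO and wild type in edgeR, against 0.0219% of all genes (3 genes). The member at an unadjusted p under 0.05 was Xrcc2, at −0.37 (95% limits −0.67 to −0.06, edgeR unadjusted p 0.0236, adjusted p 0.546); of all genes 8.04% reached that level. Xrcc3 was at −0.47 (edgeR adjusted p 0.656) and Fanca at 0.32 (edgeR adjusted p 0.697). For the interaction of index and group, 0 members and 0% of all genes were called in edgeR and 0 in limma voom; 0 members and 658 genes had an unadjusted p under 0.05 in edgeR. The interaction estimates of the members were positive for 18 and negative for 18. Their 95% limits were −0.47 to 0.44 for Fance, −0.31 to 1.11 for Brca1, −1.59 to 0.07 for Fancl and −2.62 to 1.20 for Rad51b. Limits of this width include slopes that differ between the groups, so equal slopes are not shown.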

How the data were processed

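RNA-seq libraries of 10 mice, 5 Grhl3 KO and 5 wild type, were analysed from a table of whole-number counts per gene deposited by the authors without normalization. The counts were made with featureCounts on GRCm38, per the submitters' processing notes; the sources used here give no version, aligner or annotation release. The kit kept the strand of poly(A) RNA, per the labels' protocols. The sources used here do not say how reads that match several genes were handled. The table has 0 columns outside the 10 libraries and 0 rows without a gene name. Total counts of 15.3 to 32.9 M limit the precision of genes at a few CPM. Gene positions come from GENCODE M21 (21842 of 22740 identifiers found).

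Genes were filtered with filterByExpr (minimum count 10, minimum total 15) in edgeR 4.0.16 under R 4.3.3, scaled by TMM and tested with robust quasi-likelihood F-tests, Benjamini-Hochberg adjustment over all genes and a threshold of 0.05. The index is the mean log2 CPM (prior count 2) of 16 mitotic and 16 replication genes, which were left out of tests that use it (13699 genes). Models held the group, the group and index, or their interaction. Differences are Grhl3 KO minus wild type; standard errors follow from the F statistic, and 95% limits use the moderated degrees of freedom. The index was compared by an exact permutation test over 252 assignments. The fits were tested on simulated data with known answers, in which the index was supplied and genes were drawn independently. How error in the index, or shifts shared between genes, affect the slopes was thus not tested. Promoters come from RefSeq (GRCm38.p6), using the window listed first for each gene. Stretches shared with other genes were counted with blastn 2.17.0 (at least 75 bases at 95% identity). Besides Mus81, the near-identical share of the transcript was 6.0% for Chek2, 5.2% for Rad51c, 4.4% for Xrcc2 and 3.8% for Brip1. It was 3.7% for Xrcc3, 3.2% for Exo1, 2.5% for Mre11a and 1.6% for Rbbp8.

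The 36 members and all lists were chosen with earlier results of these data known. Values per library were given for the 12 members of smallest p of the slope, the 6 of smallest p between groups and the 4 of largest p of the slope; up to 4 genes of smallest p were named in each other list, and other genes, Chek1 and Fancd2 among them, only by role or after their values were seen. Alternatives were DESeq2 size factors, upper-quartile factors, DESeq2 1.42.0, limma 3.58.1 with voom, no filter, marker covariates, the number series as a covariate, fewer libraries and other indices. Some genes that these rules take are not reported here.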

Additional observations from a re-analysis of the deposited data

Results flagged for a closer look

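In 2 of 74 combinations of a measure and a group, 1 library stood apart from the other 4 by more than the 95% critical value of Dixon's ratio, which is 0.71 for 5 samples; chance alone gives about 1 in 20. Mre11a, the nuclease of the MRN complex, was low in wild type 1555, at 29.3 CPM against 35.7 to 37.5 CPM in 1028, 1048, 1528 and 1561, with a gap of 0.799 of the group's range. Rad52 was high in Grhl3 KO 1026, at 18.1 CPM against 13.7 to 14.8 CPM in 1027, 1035, 1036 and 1043, with a gap of 0.736 of the range. Without wild type 1555 the slope of Mre11a on the index was 0.26 (main value 0.32), and without Grhl3 KO 1026 that of Rad52 was 0.07 (main value −0.03); neither gene was called with or without these libraries.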

How the results depend on the processing

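In the 24 alternative fits of the slope, the 8 genes with a called slope kept a positive slope in every fit; the number of fits in which each was called was 18 for Fanci, 17 for Rad54l, 14 for Brca1, 12 for Brca2, 11 for Blm, 10 for Eme1, 8 for Fanca and 5 for Palb2. The count of called members was 8 and that of genes 127. With DESeq2's Wald test they were 14 and 630, with the skeletal muscle covariate 5 and 65, with 16 mitotic genes as the index 2 and 57, and with 16 replication genes 5 members. They were 0 and 0 with the squamous covariate, with the leukocyte covariate, among libraries 1026 to 1048, and without the 2 libraries farthest from the median index. Leaving out 1 library gave 0 to 8 members and 0 to 166 genes, the most without wild type 1048; the cause was not tested.

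Between the groups 0 members were called under every alternative. The count of genes, 11, was 1 among libraries 1026 to 1048, with limma voom and with the number series as a covariate, 3 with the leukocyte covariate, 7 without a filter and 119 with DESeq2, and 1 to 16 on leaving out 1 library. At equal index the count of 3 genes was 0 among libraries 1026 to 1048, 6 without a filter, 9 with the mitotic index and 178 with DESeq2, and 2 to 7 on leaving out 1 library. The index difference of 0.04 ran from −0.12 to 0.20 on leaving out 1 library.

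Slopes of 9 members changed sign under at least 1 alternative, 4 of them, Fance, Rbbp8, Rad52 and Fancg, near 0. Of the others, those of Mus81, Fancf, Fancl and Slx4 (0.30, 0.28, 0.27 and 0.26) fell to a lowest value of −0.24, −0.20, −0.12 and −0.02, and that of Rad51c (0.19) to −0.13; 0 of these 9 was called in edgeR or DESeq2. That of Fance was −0.015 with the squamous covariate, −0.0039 with the replication index and −0.0015 without the 2 farthest libraries. That of Rbbp8 was −0.15 with the squamous covariate, −0.079 with the leukocyte covariate and −0.036 with the replication index, and that of Rad52 was 5.13e-06 with upper-quartile factors and 0.042 with the mitotic index. On leaving out 1 library they ran from −0.0046 to 0.024 for Fance, −0.046 to 0.12 for Rbbp8, −0.089 to 0.067 for Rad52 and −0.043 to 0.20 for Fancg. The group difference of Atm was −0.086 among libraries 1026 to 1048 and −0.088 with the number series as a covariate. No paired analysis was possible because the sample numbers are not shared between the groups. Rad51b, at the lowest mean level of the members (1.63 CPM), and Rad51c (3.47 CPM) had the largest standard errors of the slope, 0.39 each; how far depth sets them was not tested.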
